A study of Rattus norvegicus with 6 samples.

Results

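The genes described here are 8 transcripts that together mark cholinergic motor neurons: Chat, Slc18a3, Slc5a7, Ache, Mnx1, Isl1, Chodl and Ret. They were chosen by gene symbol from the deposited count table, which lists 33455 genes, and each symbol occurred there once. RNA came from the lesion centre of wild type rats whose spinal cord had been contused at thoracic segment 9. In the Gel+US group (n = 3) a gel was combined with ultrasound, and in the Piezo Gel+US group (n = 3) a piezoelectric gel, which turns mechanical strain into charge, was combined with the same ultrasound (100 Hz, 1.0 W/cm2, 10 min a day for 4 weeks). Both groups were injured and sonicated, the labels give no age, and uninjured cord and animals without ultrasound were not analysed here. The labels call the 3 libraries of a group biological replicates. The tissue piece was about 5 mm3 in size.

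Motor neurons sit in the ventral horn of the spinal grey matter and send their axons to muscle, where they release acetylcholine. Choline acetyltransferase, encoded by Chat, makes the transmitter, the vesicular transporter Slc18a3 loads it into vesicles, the choline transporter Slc5a7 recovers choline after release, and acetylcholinesterase, encoded by Ache, ends the signal. The homeodomain factors Mnx1 and Isl1 specify motor neurons, Chodl (chondrolectin) marks fast motor neurons, and Ret is the receptor kinase for ligands of the GDNF family. In thoracic cord, preganglionic neurons of the sympathetic system are also cholinergic. Ache and Ret are made by other neurons as well.

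The promoters of 4 of these genes are shown because their transcripts fell into different patterns over the libraries: Chat, Slc18a3 and Slc5a7 followed each other closely and Ache did not. Each sequence is a RefSeq window of the GRCr8 rat assembly, from 250 bases before to 50 bases after the gene start, read 5′ to 3′ on the gene's strand. All 8 genes matched this table by symbol. Capitals mark the letters GGGCGG (the GC box) on either strand.
Chat, chr16:7723367-7723666, minus strand: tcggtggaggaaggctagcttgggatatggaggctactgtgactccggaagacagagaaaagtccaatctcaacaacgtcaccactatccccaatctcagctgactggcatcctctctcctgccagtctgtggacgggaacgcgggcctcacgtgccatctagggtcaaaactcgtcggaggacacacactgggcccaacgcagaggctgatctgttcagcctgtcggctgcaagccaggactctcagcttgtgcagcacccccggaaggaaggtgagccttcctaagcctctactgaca
Slc18a3, chr16:7722765-7723064, minus strand: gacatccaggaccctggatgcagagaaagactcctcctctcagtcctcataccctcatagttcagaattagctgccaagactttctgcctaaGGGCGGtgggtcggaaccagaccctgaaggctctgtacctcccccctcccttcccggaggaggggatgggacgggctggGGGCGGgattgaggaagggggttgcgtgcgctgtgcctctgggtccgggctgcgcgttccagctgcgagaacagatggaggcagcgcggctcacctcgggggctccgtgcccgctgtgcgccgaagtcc
Slc5a7, chr9:7953460-7953759, minus strand: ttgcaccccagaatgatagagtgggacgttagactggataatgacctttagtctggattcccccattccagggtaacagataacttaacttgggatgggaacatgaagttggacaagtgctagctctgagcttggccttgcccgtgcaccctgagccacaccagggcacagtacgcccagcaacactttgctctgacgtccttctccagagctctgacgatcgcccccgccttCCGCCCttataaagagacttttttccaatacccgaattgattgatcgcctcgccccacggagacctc
Ache, chr12:25050361-25050660, minus strand: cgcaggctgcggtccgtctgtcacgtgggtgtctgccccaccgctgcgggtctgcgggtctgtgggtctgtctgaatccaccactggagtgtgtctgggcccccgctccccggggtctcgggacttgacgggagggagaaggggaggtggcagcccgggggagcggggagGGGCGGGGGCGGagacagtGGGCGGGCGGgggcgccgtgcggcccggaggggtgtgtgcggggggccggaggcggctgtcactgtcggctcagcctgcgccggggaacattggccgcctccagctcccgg

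In these windows the Slc18a3 start lies 602 bases downstream of the Chat start on the same strand, so the vesicular transporter is nested in the Chat locus. The deposited table places the genes differently. There the Chat model spans 8118123 to 8169324 and the Slc18a3 model 8173081 to 8175938 on the minus strand of the same sequence, with 3756 bases between them, in coordinates whose build is not named. The deposited Chat model therefore starts downstream of Slc18a3 and does not overlap it, and no other gene model of the table overlapped any of the 8 genes. GGGCGG occurred in the windows of 3 of the 8 genes, with 4 sites in Ache (the last 2 of them overlap), 2 in Slc18a3 and 1 in Slc5a7, and in 33.1% of 33469 promoter windows of that length. TAATTA, a homeodomain core, and TTCAGCACC, the left part of the element bound by the repressor REST, were searched on both strands and were in none of the 8 windows, against 5.36% and 0.356% of all windows. The GC content was 75.0% for Ache, 74.0% for Ret, 64.3% for Slc18a3, 60.3% for Isl1 and 60% for Mnx1. It was 57.3% for Chat, 53.7% for Chodl and 53.0% for Slc5a7, with a median of 51.7% over all windows.

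Total counts were 17212653 to 21436820 per library. All 8 genes were among the 17066 that passed the filter on low counts. Levels are CPM, counts brought to the same library size by the trimmed mean of M-values method. Piezo Gel+US replicate 2 stood apart from the other libraries by its Schwann cell genes. Gel+US replicate 2 had the highest summed level of lymphocyte genes and of red blood cell precursor genes. Their values are given with the cell type lists.

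Genes of acetylcholine synthesis and vesicle loading varied more between rats of a group than between the groups. Chat measured 32.2, 3.55 and 99.8 CPM in the Gel+US libraries, given here and below in the order of replicates 1 to 3, and 33.1, 3.57 and 5.59 CPM in the Piezo Gel+US libraries. The highest Gel+US library was 28.1 times the lowest, and the Piezo Gel+US values lay within the Gel+US range. The mean was 45.2 ± 49.4 CPM for Gel+US and 14.1 ± 16.5 CPM for Piezo Gel+US (SD, n = 3), with a log2 fold change of -1.68 (95% interval -4.65 to 1.29, edgeR quasi-likelihood adjusted p = 0.994). Libraries numbered 1 were close to each other in Chat, as were those numbered 2, and those numbered 3 were far apart.

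Slc18a3 measured 92.3, 5.50 and 254.9 CPM in Gel+US and 110.3, 17.8 and 27.2 CPM in Piezo Gel+US. Its order of libraries was that of Chat, with Gel+US replicate 3 highest and Gel+US replicate 2 lowest, and the groups overlapped. The log2 fold change was -1.18 (95% interval -4.10 to 1.73, edgeR adjusted p = 0.994). The choline transporter Slc5a7 measured 81.6, 5.998 and 241.3 CPM in Gel+US and 95.8, 10.1 and 18.8 CPM in Piezo Gel+US, a 40.2-fold span among the Gel+US libraries. This transporter had a log2 fold change of -1.40 (95% interval -4.45 to 1.65, edgeR adjusted p = 0.994). For these 3 genes the interval holds both a decrease of more than 4 log2 units and an increase of more than 1, so these libraries set no narrow limit on a group difference.

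Ache, the enzyme that breaks acetylcholine down, had a flatter profile. It measured 131.4, 68.6 and 238.8 CPM in Gel+US and 125.0, 63.8 and 122.6 CPM in Piezo Gel+US. The lowest value was in Piezo Gel+US replicate 2, and the span over the 6 libraries was 3.74-fold. Its log2 fold change was -0.50 (95% interval -1.64 to 0.65, edgeR adjusted p = 0.994).

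The motor neuron transcription factors were scarce. Mnx1 measured 2.51, 0.666 and 3.46 CPM in Gel+US and 2.72, 0.0503 and 0.776 CPM in Piezo Gel+US. It was high in the libraries that were also high in Chat, and its lowest library, Piezo Gel+US replicate 2, held 1 count. Against the 69 counts of Gel+US replicate 3 that is a ratio of 68.7 with an exact 95% interval for counting error of 11.9 to 2754. Isl1 measured 0.501, 0.222 and 4.51 CPM in Gel+US and 0.374, 0.604 and 0.621 CPM in Piezo Gel+US, which is 90 counts in Gel+US replicate 3 and 4 to 12 in each other library. Gel+US replicate 3 alone was high in Isl1, whereas Mnx1 had 3 high libraries. The log2 fold changes were -0.91 for Mnx1 (95% interval -3.58 to 1.77) and -1.70 for Isl1 (95% interval -4.30 to 0.90), each with an edgeR adjusted p = 0.994.

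Chodl, the marker of fast motor neurons, measured 82.1, 7.61 and 320.2 CPM in Gel+US and 120.7, 44.4 and 20.9 CPM in Piezo Gel+US. Unlike Chat, Slc18a3 and Slc5a7, it was higher in Piezo Gel+US replicate 2 than in Piezo Gel+US replicate 3. The log2 fold change was -1.14 (95% interval -3.98 to 1.70, edgeR adjusted p = 0.994). Ret measured 166.0, 86.2 and 261.4 CPM in Gel+US and 137.9, 55.7 and 108.6 CPM in Piezo Gel+US. Its profile resembled that of Ache, with a 4.69-fold span over the libraries. The receptor had the lowest unadjusted p of the 8 genes (log2 fold change -0.76, 95% interval -1.91 to 0.38, edgeR adjusted p = 0.994).

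**Figure D1:**
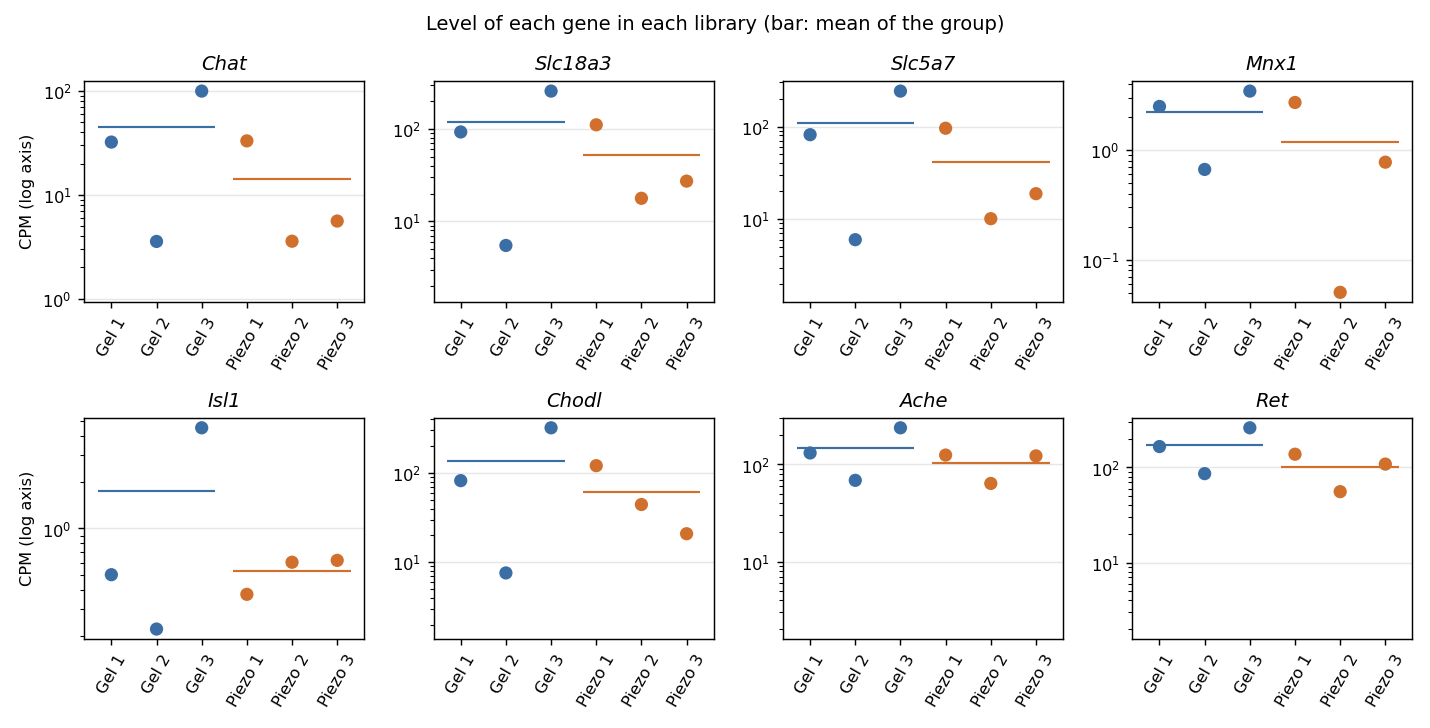
CPM (log axis, scaled separately in each panel) of the 8 genes in Gel+US replicates 1 to 3 (blue) and Piezo Gel+US replicates 1 to 3 (orange), with a bar at the mean of each group. In each panel Gel+US replicate 3 is the highest point, and the points of the groups overlap.

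By CPM the 8 genes did not separate the groups. Gel+US replicate 3 had the highest level of all 8, and 7 of the 8 (Isl1 being the exception) had Gel+US replicates 1 and 3 and Piezo Gel+US replicate 1 as their 3 highest libraries. The lowest library was Gel+US replicate 2 for 5 genes and Piezo Gel+US replicate 2 for the other 3. Group values did not overlap for 0 of the 8 genes, against 6.81% of the 17066 genes tested. EdgeR called 0 of the 8 genes at an adjusted p below 0.05, and 0% of all genes. At an unadjusted p below 0.05 there were 0 of the 8 by edgeR (2.10% of all genes), 0 by DESeq2 (2.81%), 0 by limma-voom with quality weights (14.1%) and 1, Ret, with the replicate number as a block (5.78%).

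Point estimates were below 0 for 8 of the 8 genes, against 52.9% of all genes tested, with a median log2 fold change of -1.16 beside -0.021 for all genes. The direction was shared by general neuron genes, of which 15 of 15 tested were also lower (median -0.45, 0 called by edgeR), and 9 of 15 without Gel+US replicate 3 (median -0.011). The genes share their libraries and largely their profile, so they are not 8 independent observations. Without Gel+US replicate 3, 4 of the 8 were below 0 and the median was -0.0082. In that fit Slc18a3, Isl1, Chodl and Ache turned to 0.089, 0.54, 0.47 and 0.051, and Chat stood at -0.34. Without Piezo Gel+US replicate 1 the estimate for Chat was -3.32 and the median was -2.25, still with 0 genes called by edgeR.

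**Figure D2:**
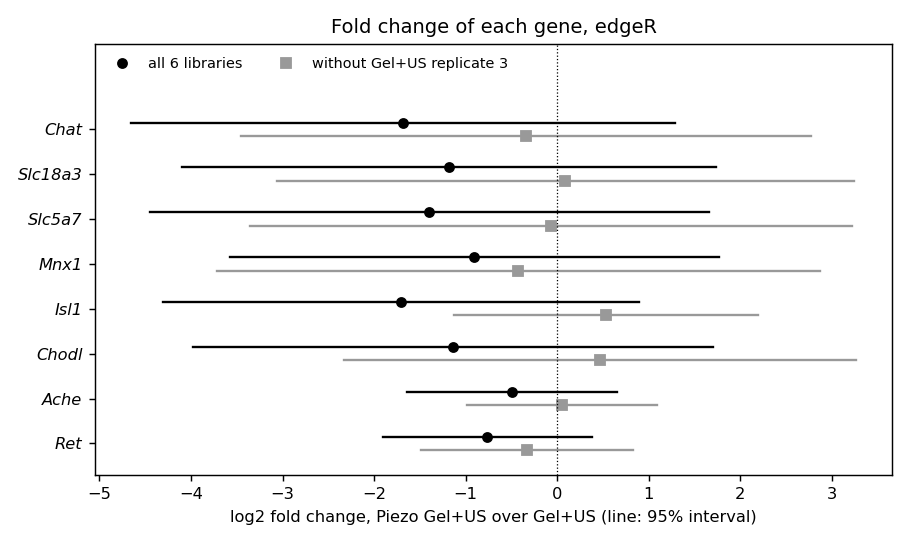
Log2 fold change of each gene (Piezo Gel+US over Gel+US, edgeR) with its 95% interval, for all 6 libraries (black circles) and without Gel+US replicate 3 (grey squares). Each interval crosses 0, and without Gel+US replicate 3 the estimates move towards 0 or past it.

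Few genes of the table ranged as far between libraries as the cholinergic genes. The span over the 6 libraries, taken as the highest minus the lowest log2 CPM with a prior count of 2, was 5.51 for Slc18a3, 5.38 for Chodl, 5.31 for Slc5a7 and 4.77 for Chat. Only 0.545%, 0.650%, 0.691% and 1.10% of the genes tested had a span at least as wide, and the median gene spanned 1.02. Mnx1 and Isl1 spanned 4.53 and 3.82 (1.34% and 2.66% of genes at least as wide), at low counts. Ache and Ret spanned 1.903 and 2.23, which 20.1% and 13.9% of genes reached. The span is a description of these libraries and was not tested.

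**Figure D3:**
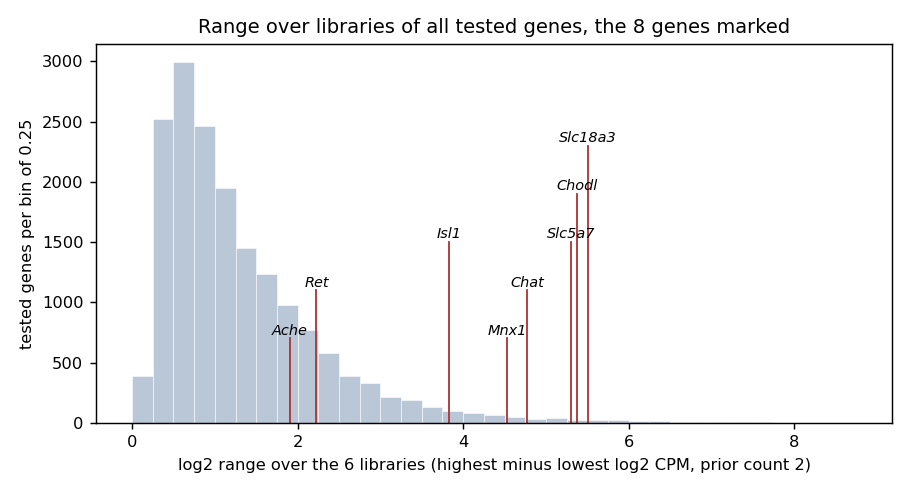
Number of tested genes by their log2 range over the 6 libraries (bins of 0.25), with the 8 genes marked by red lines whose heights only separate the names. Slc18a3, Chodl, Slc5a7 and Chat lie in the far right tail. Ache and Ret lie closer to the median of 1.02, but above it.

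The span of the transmitter genes was wider than that of neuronal RNA as a whole. The summed CPM of 15 general neuron genes, among them the synaptic protein gene Snap25 and the neuronal nuclear protein gene Rbfox3, was 5473, 2974 and 8280 in Gel+US and 4865, 2370 and 5096 in the Piezo Gel+US libraries, a 3.49-fold span. Per 1000 CPM of these genes, a scale chosen after the values were seen, Chat stood at 5.89, 1.195 and 12.1 in Gel+US and 6.80, 1.51 and 1.10 in Piezo Gel+US. Chat thus remained 10.997 times higher in its highest library than in its lowest. Slc18a3, Slc5a7 and Chodl spanned 16.7-fold, 14.4-fold and 15.1-fold on that scale, and the scarce Mnx1 and Isl1 26.4-fold and 7.29-fold. Of the genes tested, 87.9% had a span no wider than that of Chat, 92.5% than Slc18a3, 91.2% than Slc5a7, 91.6% than Chodl, 95.3% than Mnx1 and 78.8% than Isl1. These spans used no prior count, and the neuron sum itself spanned 3.49-fold, so the shares cannot be set against those by CPM.

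Ache and Ret, by contrast, kept a narrow span on the same scale. Ache stood at 24.0, 23.1 and 28.8 per 1000 neuron CPM in Gel+US and 25.7, 26.9 and 24.1 in Piezo Gel+US, a 1.25-fold span that only 0.205% of tested genes matched or undercut. Ret stood at 30.3, 29.0 and 31.6 in Gel+US and 28.4, 23.5 and 21.3 in Piezo Gel+US (1.48-fold, 1.62% of tested genes). Its Piezo Gel+US values thus all lay below its Gel+US values. The share of all genes without overlap on this scale was not computed, and the difference on this scale was not tested. The median tested gene spanned 4.14-fold. Single genes of the neuron sum itself spanned 1.196-fold (Snap25) to 2.74-fold (Tubb3), so Ache varied with that sum about as closely as Snap25, which is part of it.

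Piezo Gel+US replicates 1 and 3 show the contrast within a group. Their neuron sums were 4865 and 5096 CPM and their inhibitory neuron sums 587 and 737 CPM, yet Chat was 33.1 and 5.59 CPM and Slc5a7 95.8 and 18.8 CPM. Relative to neuron RNA, Chat in replicate 3 was 0.161 times its level in replicate 1, Slc18a3 0.236 times and Chodl 0.165 times, while Ache was 0.936 times and Ret 0.751 times. The transcription factors went opposite ways, with Mnx1 at 0.272 times and Isl1 at 1.587 times, on few counts. These are single libraries, and the difference has no replicate check. In tissue pieces of this kind fewer motor neurons and less of these transcripts per motor neuron cannot be told apart.

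**Figure D4:**
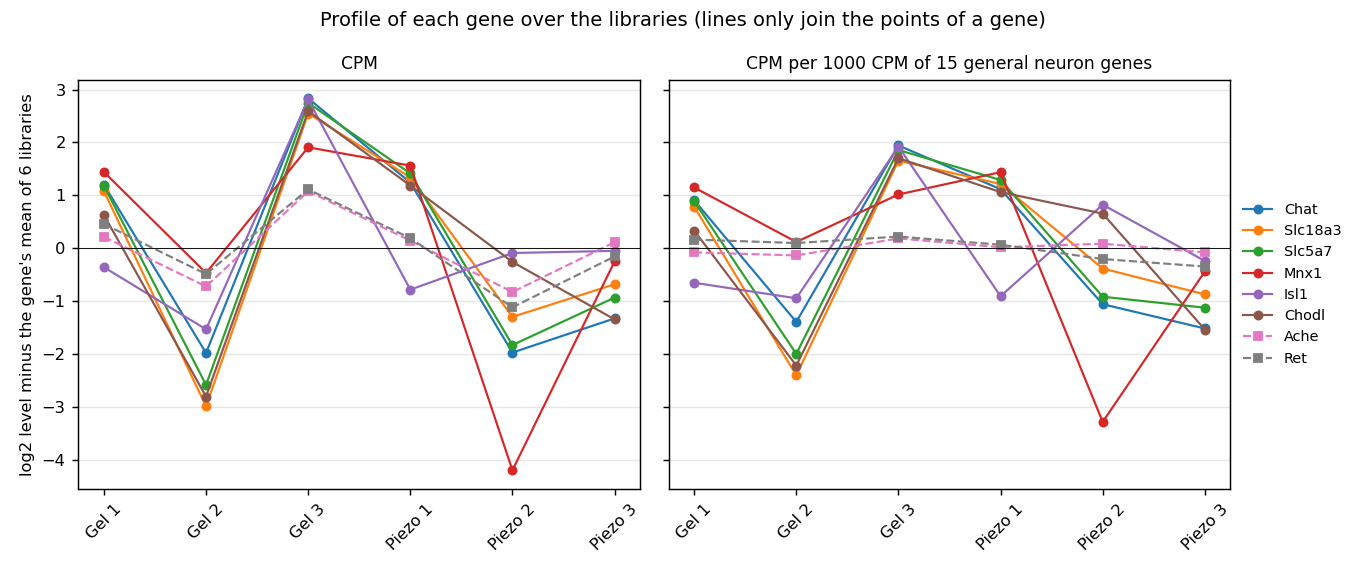
Log2 level of each gene minus its own mean over the 6 libraries, as CPM (left) and per 1000 CPM of 15 general neuron genes (right), with lines that only join the points of a gene. On the right Ache and Ret (dashed) keep a narrow span, with the Piezo Gel+US points of Ret below its Gel+US points. Chat, Slc18a3, Slc5a7 and Chodl keep a wide span.

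Levels of different genes were compared per kilobase of the deposited gene length. In Gel+US the order was Ache (58.2 ± 34.2 CPM per kb), Chodl (53.9 ± 64.4), Slc18a3 (41.1 ± 44.3), Ret (30.01 ± 15.4), Slc5a7 (23.2 ± 25.4), Chat (18.5 ± 20.2), Mnx1 (1.15 ± 0.740) and Isl1 (0.790 ± 1.09; SD, n = 3). The order of the means was the same in Piezo Gel+US, from Ache (41.3 ± 13.8 CPM per kb) to Isl1 (0.241 ± 0.0625). In neither group did neighbours in this order differ by more than the larger of their SDs. Within libraries, Chat was above Mnx1 in 6 of 6, while Slc18a3 was above Ret in 3 of 6.

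Resemblance between profiles was measured as the root mean square difference of centred log2 CPM over the 6 libraries, where 0 is an identical profile. Among the 8 genes the closest pairs were Ache with Ret (0.213), Slc18a3 with Slc5a7 (0.305) and Chat with Slc5a7 (0.310). Chat and Slc18a3 differed by 0.571, and Chat and Ache by 1.29. Slc18a3 lay above its own mean by less than Chat in Gel+US replicate 3 and below it by less in both low Piezo Gel+US libraries.

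Outside the 8 genes, Slc10a4 was nearest to Slc5a7 (0.086), Slc18a3 (0.279) and Chat (0.371). It encodes an orphan transporter of synaptic vesicles in cholinergic and monoaminergic neurons, and measured 34.0, 2.44 and 96.0 CPM in Gel+US and 44.98, 4.33 and 8.69 CPM in Piezo Gel+US. The next nearest to Chat were the LIM homeodomain gene Isl2 (0.487) and the neurofilament gene Nefm (0.511), and the next to Slc18a3 were the muscle-specific kinase receptor gene Musk (0.599) and the serotonin receptor gene Htr2a (0.644). For Slc5a7 these were Nefm (0.589) and Isl2 (0.615). Chodl was nearest to Musk (0.546), Arhgap36 (0.556) and the peripheral filament gene Prph (0.702).

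Mnx1 was nearest to Acvr1c (0.467), Sult2b1 (0.508) and Cda (0.509). Isl1 lay nearest to the serotonin receptor gene Htr3a (0.541) and to Prlhr (0.549). Ache had much closer ones in Ube2ql1 (0.057), the glycine receptor subunit gene Glrb (0.058) and Agtpbp1 (0.063), as had Ret in Ctnna2 (0.080), Rab39a (0.082) and Pnpla3 (0.084). The resemblance rests on 6 libraries and a search over all tested genes with a mean of at least 1 CPM.

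The other genes listed for motor neurons followed the 8 only in part. The list was not limited to genes that motor neurons alone make. Among those that shared the high libraries of Chat were Prph, Nefh, Isl2, Lhx4 and Slc10a4. Spp1 instead peaked in Piezo Gel+US replicate 2, at 486.2 CPM. Gel+US replicate 3 was the highest library for 14 of 25, of which 1 had no count in any library, against 8 of the 8. Relative to neuron RNA their median span was 4.64-fold, against 12.7-fold for the 8 genes. Of 27 listed, 25 were matched by symbol and 23 tested, of which 17 were lower and 6 higher in Piezo Gel+US (median log2 fold change -0.39, beside -0.021 for all genes) and 0 were called by edgeR, with 0 at an unadjusted p below 0.05. Without Gel+US replicate 3, 11 of 22 were lower and the median was -0.0076. The neurofilament genes Nefl and Nefm, which large axons carry in quantity, were the most abundant and, with Nefh, made up most of the summed level of the list in every library but Piezo Gel+US replicate 2. Nefm measured 1949, 459 and 5398 CPM in Gel+US and 2841, 372 and 804 CPM in Piezo Gel+US, with the same high libraries as Chat. Nefl ranged from 750 to 5658 CPM in Gel+US and from 489 to 2644 CPM in Piezo Gel+US. The listed gene of lowest p was the neuropeptide receptor gene Vipr2 (log2 fold change -1.34, edgeR adjusted p = 0.994), whose highest level, 15.3 CPM, was in Gel+US replicate 2, the library lowest in Chat. Aldh1a2, which makes retinoic acid, and the protease gene Mmp9 also peaked there, at 31.5 and 14.9 CPM. Foxp1, a factor of limb motor neurons, stayed within 30.8 to 57.5 CPM in the 6 libraries, and the synaptic vesicle gene Sv2a within 66.4 to 168.0 CPM. Aldh1a2, Mmp9, Foxp1, Sv2a, Spp1, Prph, Nefh, Isl2, Lhx4 and Slc10a4 were picked here after their values were seen.

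Genes of acetylcholine supply and breakdown outside the 8 varied less between libraries than Chat, with a 1.68-fold span of their summed CPM. Of 8 tested, 5 were higher and 3 lower (median 0.092), and 0 were called by edgeR, with 0 at an unadjusted p below 0.05. Slc44a1, a choline transporter of most cells, measured 313.6, 278.3 and 413.3 CPM in Gel+US and 357.8, 567.0 and 377.0 CPM in Piezo Gel+US. Acly, which makes cytosolic acetyl-CoA, measured 364.6, 198.8 and 659.6 CPM in Gel+US and 403.6, 333.1 and 282.0 CPM in Piezo Gel+US. Its 3 highest libraries and its lowest library were those of Chat, over a narrower span. The acetylcholinesterase anchor genes Prima1 and Colq, named after their values were seen, also had the 3 highest libraries of Chat, with Piezo Gel+US replicate 1 first (48.5 and 4.16 CPM). The choline transporter-like gene Slc44a2 had the lowest p of the list (log2 fold change 0.57, edgeR adjusted p = 0.994).

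Receptors for acetylcholine were mostly lower in Piezo Gel+US by point estimate. Of 22 listed, 14 were tested, 12 lower and 2 higher (median -0.63), with 0 called by edgeR and 1 at an unadjusted p below 0.05. Of all genes tested, 52.9% were lower and 2.10% had an unadjusted edgeR p below 0.05. The direction was shared by general neuron genes, 15 of 15 of them lower. That gene was the muscarinic receptor gene Chrm5, with 2.61, 1.28 and 1.10 CPM in Gel+US and 0.427, 0.402 and 0.621 CPM in Piezo Gel+US. Its groups did not overlap, as in 6.81% of all genes tested (log2 fold change -1.77, 95% interval -3.001 to -0.54, edgeR adjusted p = 0.994). The Piezo Gel+US values rest on 8, 8 and 12 counts. Lynx1, a modulator of nicotinic receptors, measured 63.4, 37.9 and 107.7 CPM in Gel+US and 51.9, 27.6 and 65.2 CPM in Piezo Gel+US. The nicotinic subunit gene Chrna4 averaged 19.7 ± 6.11 CPM for Gel+US and 15.1 ± 7.30 CPM for Piezo Gel+US (log2 fold change -0.38, edgeR adjusted p = 0.994). Without Gel+US replicate 3 the median of the list was -0.23 and without Piezo Gel+US replicate 2 it was -0.31, with 11 of 14 lower in each.

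Ligands and co-receptors of Ret showed no common direction. Of 8 tested, 4 were higher and 4 lower (median -0.065), with 0 called by edgeR and 0 at an unadjusted p below 0.05. Gfra1, the co-receptor for GDNF, measured 69.9, 86.1 and 102.8 CPM in Gel+US and 81.9, 118.6 and 73.0 CPM in Piezo Gel+US. Gfra2, the co-receptor for neurturin, averaged 36.1 ± 1.67 CPM for Gel+US and 43.5 ± 22.9 CPM for Piezo Gel+US, with 69.9 CPM in Piezo Gel+US replicate 2. Gdf15, whose receptor signals through Ret, had the lowest p (log2 fold change 0.57, edgeR adjusted p = 0.994).

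Genes of other cell types were read in the same libraries, since Ache is also made by muscle and red blood cell precursors, Chat by some lymphocytes, and Isl1 and Ret by sensory ganglion neurons. Summed CPM of 10 lymphocyte genes was 79.7, 197.3 and 35.3 in Gel+US and 124.0, 39.8 and 56.1 in Piezo Gel+US, highest in the library lowest in Chat. Cd4, which rat macrophages and microglia also make, supplied 63.8, 112.4 and 32.98 CPM of these sums in Gel+US and 65.8, 24.7 and 41.4 CPM in Piezo Gel+US. Without Cd4 the sums were 15.9, 84.9 and 2.31 CPM in Gel+US and 58.1, 15.1 and 14.7 CPM in Piezo Gel+US, with Gel+US replicate 2 again highest. The 3 red blood cell precursor genes matched summed to 208.6, 401.7 and 6.41 CPM in Gel+US and 120.1, 47.5 and 2.79 CPM in Piezo Gel+US, so that the library highest in Ache was close to the lowest in these genes. Muscle genes, 9 of 13 matched, summed to 36.2 to 54.5 CPM in Gel+US and 34.5 to 154.1 CPM in Piezo Gel+US. The muscle maximum was in Piezo Gel+US replicate 2, where the actin gene Acta1 reached 72.1 CPM and Ache was lowest. The part of lymphocytes in Chat, and of red blood cell precursors and muscle in Ache, was not tested.

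Sensory ganglion genes, 11 of 11 matched, summed to 13.7 to 24.9 CPM in Gel+US and 20.5 to 23.9 CPM in Piezo Gel+US. Their highest sum was in Gel+US replicate 3, the library highest in Isl1 and Ret, and Prdm12 was at 0 counts in the 6 libraries. The next highest sum, 23.9 CPM, was in Piezo Gel+US replicate 2, the library lowest in Ret. The part of ganglion tissue in Isl1 and Ret was not tested. The 10 Schwann cell genes analysed, among them Prx, which encodes periaxin of peripheral myelin, summed to 3083, 3901 and 3539 CPM in Gel+US and 4504, 13945 and 6062 CPM in Piezo Gel+US. These 10 had a positive log2 fold change (median 1.503), 0 were called by edgeR and 5 had an unadjusted p below 0.05 (2.10% of all genes). Without Piezo Gel+US replicate 2 their median was 0.596, with 10 of 10 still higher. The library richest in Schwann cell genes, Piezo Gel+US replicate 2, was the lowest in Mnx1, Ache and Ret. The part of Schwann cell RNA in these levels was not tested, and without the same library the median log2 fold change of the 8 genes was -0.87.

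**Figure D5:**
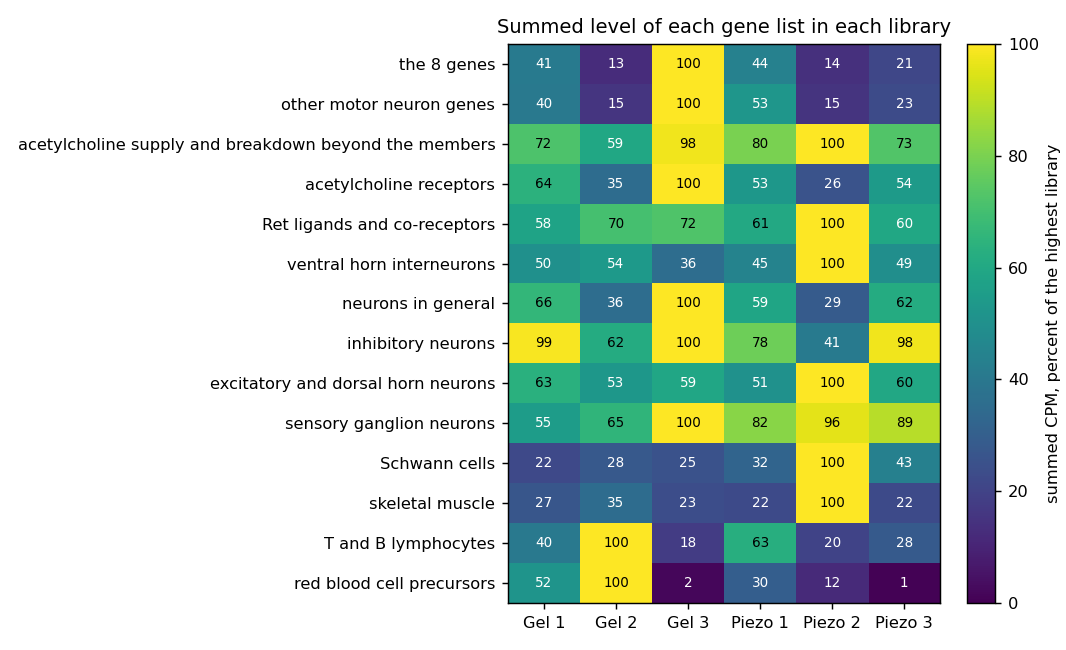
Summed CPM of each gene list in each library as percent of the list's highest library (color and number). The 8 genes and the other motor neuron genes peak in Gel+US replicate 3 and are at 12.5% to 15.4% of that peak in Gel+US replicate 2 and Piezo Gel+US replicate 2, while inhibitory neuron genes are at 61.7% and 40.8% there.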

How the data were processed

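The deposited values are whole-number counts per gene, which the authors had not normalised. The submitters' processing notes list fastp 0.19.7, HISAT2 2.0.5, featureCounts 1.5.0-p3 as well as DESeq2 1.20.0, with no settings. The genome build and the strand setting of the counting are not given in the sources used here. Columns were assigned to libraries by the names that the labels give.

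The comparison used edgeR 4.0.16 (R 4.3.3) with TMM factors, filterByExpr (minimum count 10, minimum total 15) and the robust quasi-likelihood test on group. Benjamini-Hochberg adjustment covered the 17066 genes tested. Alternatives used DESeq2 1.42.0, limma 3.58.1, other scaling, no filter, the replicate number as a block, and leaving out each library. The code was tested on simulated data. Members and lists were chosen with earlier results of these data known.

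Named from each list are the 2 genes of highest mean CPM and the tested gene of lowest p, with the 3 genes nearest in pattern to each member. Snap25, Rbfox3, Tubb3, Prdm12 and the promoters were chosen after values were seen. Deviations from the group means correlated at 0.253, 0.296 and 0.251 between same-numbered libraries, each above 0.1. By the rule applied this pairs them, although the labels name no shared litter or day. Gel+US replicate 1 and Piezo Gel+US replicate 3, of different numbers, also correlated above 0.1, at 0.198. Estimates and intervals come from fits without this pairing unless the replicate block is named. Some genes that these rules name are not reported here, and 1 was left out of its list. No 2 libraries matched within sampling noise. Counting intervals cover counting error only.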

Additional observations from a re-analysis of the deposited data

How the results depend on the processing

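EdgeR's count of 0 genes called, over all genes and among the 8, was 0 under each of the 12 alternatives run (DESeq2, upper quartile factors, no scaling factors, no low-count filter, limma-voom, the replicate block and the 6 fits that left out 1 library). Over 96 estimates for single genes, 4 changed sign, each without Gel+US replicate 3: Slc18a3 (0.089), Isl1 (0.54), Chodl (0.47) and Ache (0.051). The cause was not tested. Over the fits that left out 1 library, Slc18a3 ran from -2.41 to 0.089, Isl1 from -2.23 to 0.54, Chodl from -2.09 to 0.47, Ache from -0.84 to 0.051 and the median of the 8 genes from -2.25 to -0.0082. With the replicate block the median was -0.74, and 1 gene, Ret, had an unadjusted p below 0.05 (log2 fold change -0.72, edgeR adjusted p = 0.855). Under the block Slc18a3 stood at -0.33, Slc5a7 at -0.76, Isl1 at -0.796, Chodl at -0.0086 and Mnx1 at -1.501, each a move of more than 1.5 times. Isl1 (-0.051) and Ache (-0.14) moved by as much under limma-voom. The block changed no call at the adjusted threshold. Leaving out Gel+US replicate 2 put Ret at an unadjusted edgeR p below 0.05, and leaving out Piezo Gel+US replicate 1 did so for Chat. The edgeR adjusted p-values of the 8 genes were at least 0.744 and 0.924 in these fits, so none was called. The lowest adjusted p of the 8 genes under limma-voom was 0.355. Depth limits Mnx1 and Isl1 most, with 1 to 69 and 4 to 90 counts per library.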

Other observations

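The summed level of ventral horn interneuron genes did not share the profile of the motor neuron genes: it was lowest, at 65.7 CPM, in Gel+US replicate 3. Of 10 tested, 6 were lower and 4 higher (median log2 fold change -0.23), and 0 were called by edgeR, with 0 at an unadjusted p below 0.05. The most abundant of the list was Foxd3, which measured 11.7, 32.2 and 10.52 CPM in Gel+US and 25.6, 115.2 and 28.6 CPM in Piezo Gel+US, highest in the library that was also highest in Schwann cell genes. Gata2, a factor of V2b interneurons that is also made in blood cell precursors and vessels, measured 19.8, 19.5 and 10.3 CPM in Gel+US and 16.4, 26.3 and 20.9 CPM in Piezo Gel+US. The list therefore rests on genes that other cells make as well.

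Inhibitory neuron genes kept a narrower span than the cholinergic genes. Slc32a1, the vesicular transporter of GABA and glycine, measured 107.6, 67.6 and 108.1 CPM in Gel+US and 76.0, 47.1 and 128.7 CPM in Piezo Gel+US, so it was highest in Piezo Gel+US replicate 3, where Chat was low. The 6 inhibitory genes were lower in Piezo Gel+US by point estimate (median -0.27, 0 called by edgeR and 0 at an unadjusted p below 0.05), with 3 of 6 lower without Piezo Gel+US replicate 2. In the list of excitatory and dorsal horn genes, 7 of 8 were lower (median -0.59, 0 called by edgeR and 0 at an unadjusted p below 0.05), but 4 of 8 without Gel+US replicate 1 (median 0.037). The gene that was higher was Reln, the most abundant of the list (log2 fold change 0.71, edgeR adjusted p = 0.994), which reached 555.6 CPM in the library richest in Schwann cell genes and lay at 178.7 to 254.6 CPM in the others. Tac1, the precursor of substance P, measured 38.2, 9.05 and 14.0 CPM in Gel+US and 10.1, 6.99 and 12.2 CPM in Piezo Gel+US, highest in Gel+US replicate 1 rather than in Gel+US replicate 3.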
